A study of Homo sapiens with 9 samples.

Results

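The short arm of human chromosome 6 carries, side by side, the main cluster of histone genes and the major histocompatibility complex (MHC). Open chromatin in this stretch was described in the prostate cancer line VCaP and its enzalutamide-resistant derivative VCaP16, using ATAC-seq, in which the transposase Tn5 cuts and tags open DNA. Enzalutamide is a drug that blocks the androgen receptor. The 9 peak lists were joined into 94773 regions over the genome, with peaks that share 1 bp or more put into the same region. Those on chromosome 6 with a midpoint between 25.7 and 33.4 Mb (hg19) were taken, 480 in all. They fall into 3 sections: 202 regions in the histone gene section (25.7 to 28.9 Mb), 150 in the class I section (28.9 to 31.6 Mb) and 128 in the class III and II section (31.6 to 33.4 Mb). The limits are round coordinates and were laid over no gene annotation, since none on hg19 was used here, so the section names are positions and no region is assigned to a gene.

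The 9 libraries form 3 groups of 3. VCaP16 cells were grown in 16 µM enzalutamide. VCaP_ENZ libraries came from VCaP cells given 10 µM enzalutamide for 96 h. VCaP_DMSO libraries came from VCaP cells given the solvent DMSO. All cells were wild type per the labels and were grown in DMEM with serum. VCaP16 is a single derived line with no library grown without the drug, so effects of the line and of the drug cannot be told apart, and its dose differs from that of the treated VCaP cells. The labels do not say that the 3 libraries of a group are separate cultures, so the spread between them may be technical.

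The histone genes of this cluster are mostly of the replication-dependent kind, which are switched on together when DNA is copied and package the new DNA into nucleosomes. Transfer RNA genes and zinc finger genes lie among them. Class I genes of the MHC encode the HLA molecules that show peptides on the surface of nearly all nucleated cells. Class II genes encode the HLA molecules of antigen-presenting cells. Genes for the transporter and proteasome subunits that prepare peptides lie among them but are not class II genes. The class III genes, between class I and class II, include complement components and heat-shock proteins. The factor NF-Y, which binds CCAAT, is known to act at promoters of histone genes and of both HLA classes.

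The RefSeq tables used for gene names and sequences (GRCh38.p14) hold 55 coding histone genes on chromosome 6: 6 for the linker histone H1, 12 for H2A, 15 for H2B, 10 for H3 and 12 for H4. In gene order they form 3 runs. The first holds 34 genes from H2AC1 to H4C8, the second 5 genes from H2BC11 to H2AC12 and the third 16 genes from H2BC13 to H2BC17, with 84 and 77 other annotated genes between the runs. To show what a promoter of each section looks like, the 250 bases before the start of 1 gene each follow as examples, 5′ to 3′ on the strand of the gene: H2AC4 encodes a core histone H2A, HLA-C a class I heavy chain and HLA-DMA a chain of the class II molecule that helps to load peptides. Capitals mark CCAAT or its reverse complement ATTGG, and TATAAA or its reverse complement TTTATA. No region of these libraries was matched to these promoters, because they are on another genome build.
H2AC4: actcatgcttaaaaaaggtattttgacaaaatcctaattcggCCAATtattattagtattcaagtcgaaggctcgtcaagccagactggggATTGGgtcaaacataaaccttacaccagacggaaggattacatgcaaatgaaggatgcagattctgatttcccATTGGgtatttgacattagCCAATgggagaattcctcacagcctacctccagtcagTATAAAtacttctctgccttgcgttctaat
HLA-C: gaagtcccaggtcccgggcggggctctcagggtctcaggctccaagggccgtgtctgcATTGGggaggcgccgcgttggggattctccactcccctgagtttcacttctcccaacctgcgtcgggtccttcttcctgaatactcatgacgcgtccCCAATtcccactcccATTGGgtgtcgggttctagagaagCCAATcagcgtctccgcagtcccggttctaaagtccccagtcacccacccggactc
HLA-DMA: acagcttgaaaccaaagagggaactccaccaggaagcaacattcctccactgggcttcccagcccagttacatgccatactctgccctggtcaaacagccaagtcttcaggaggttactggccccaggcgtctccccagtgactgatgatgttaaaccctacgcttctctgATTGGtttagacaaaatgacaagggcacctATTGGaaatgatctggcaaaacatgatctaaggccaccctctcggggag

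The H2AC4 promoter has 4 CCAAT matches and 1 TATAAA match in this window, HLA-C has 4 CCAAT matches and HLA-DMA has 2. Among all histone genes with a promoter in the table (50 of 55), 86% hold a CCAAT match and 66% a TATAAA match, searched on both strands of the 250 bases before the start. The motifs were searched separately, so matches may share bases. Of the class I and related genes on a list made for this report, 6 of 8 have a promoter in the table, of which 83.3% hold CCAAT and 16.7% TATAAA. Of the class II and antigen processing genes, 17 of 18 have one, of which 76.5% hold CCAAT and 23.5% TATAAA. Over all 27305 promoters the shares are 33% and 11.1%. A match of letters is not a binding site.

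All 3 sections were rich in open regions, and most of these were shared by the groups. The class III and II section had 71.1 regions per Mb, the histone gene section 63.1 and the class I section 55.6. Cut into bins of 500 kb, the stretch had a median of 32 regions per bin (19 to 38 over 15 bins, which hold 457 of the 480 regions), against a median of 15 over the 5573 other bins of the genome with at least 1 region. The bins with the most regions, 38 each, were chr6:26200001-26700000 in the histone gene section and chr6:31700001-32200000 in the class III and II section. The 23 regions after the last bin, which include the best scored of the stretch, are in none of the 15 bins. As many regions as in this pair, or more, were found in 4.23% of the other bins. The histone gene bin was the more uniform of this pair, with 27 of its regions called in every library, against 21 in the class III and II bin. The fewest, 19 regions with 6 called in every library, lay in chr6:29200001-29700000 of the class I section. Regions were less than 5 kb from the next in 33.9% of cases in the class III and II section, 22.8% in class I and 21.4% in the histone gene section.

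**Figure D1:**
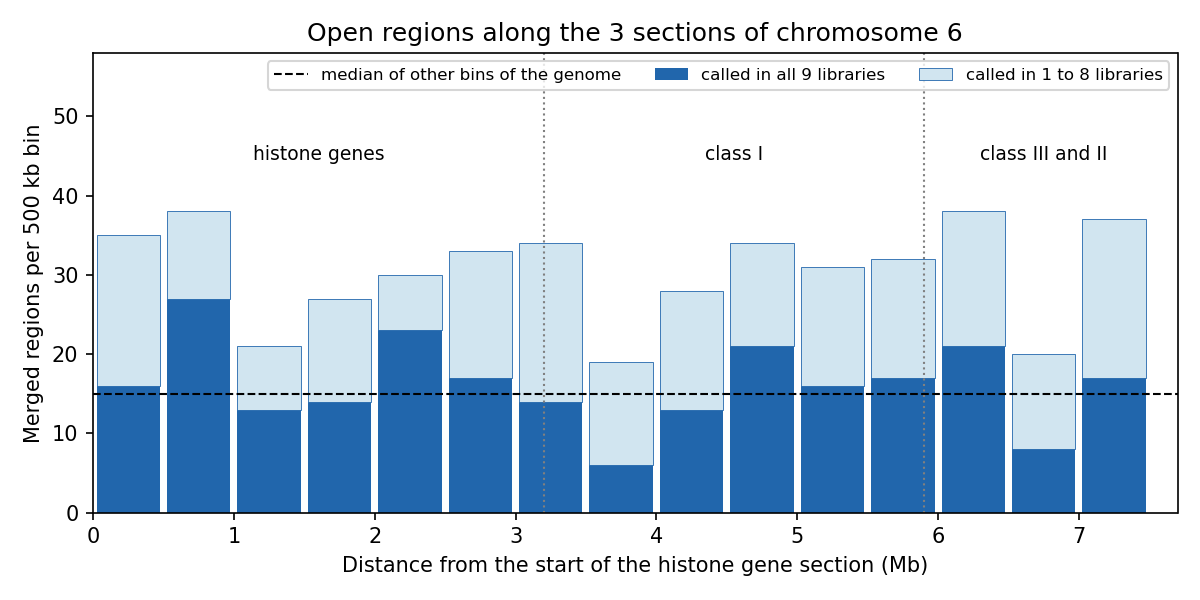
Bars give the number of merged regions per 500 kb bin along the stretch, with the x axis as the distance in Mb from the start of the histone gene section; dark bars are regions called in all 9 libraries, pale bars regions called in 1 to 8, dotted lines part the sections, and the last 23 regions are not drawn. Every one of the 15 bins lies above the dashed line, the median of 15 regions in the other bins of the genome.

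Long stretches without any region in any library broke up each section. In the histone gene section the longest ran over 113 kb, chr6:26739644-26852395. In the class I section it covered 91.4 kb, chr6:29262228-29353648, inside the bin with the fewest regions. In the class III and II section it covered 73.4 kb, chr6:31940604-32013964, inside a bin with the most regions. Peaks were called by the authors from mapped reads, and how well short reads can be placed in these stretches was not tested.

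Calling was broad. Of the 202 histone gene regions, 120 (59.4%) were called in all 9 libraries, as were 71 of 150 (47.3%) in class I and 68 of 128 (53.1%) in class III and II. Elsewhere on chromosome 6 the share was 32.3%, and over the genome outside the sections 34.8%. Regions called in a single library made up 14.9% in the histone gene section, 18.7% in class I and 13.3% in class III and II, against 22.6% in the rest of the genome. That leaves 221 of the 480 regions that were called in some libraries and missed in others.

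**Figure D2:**
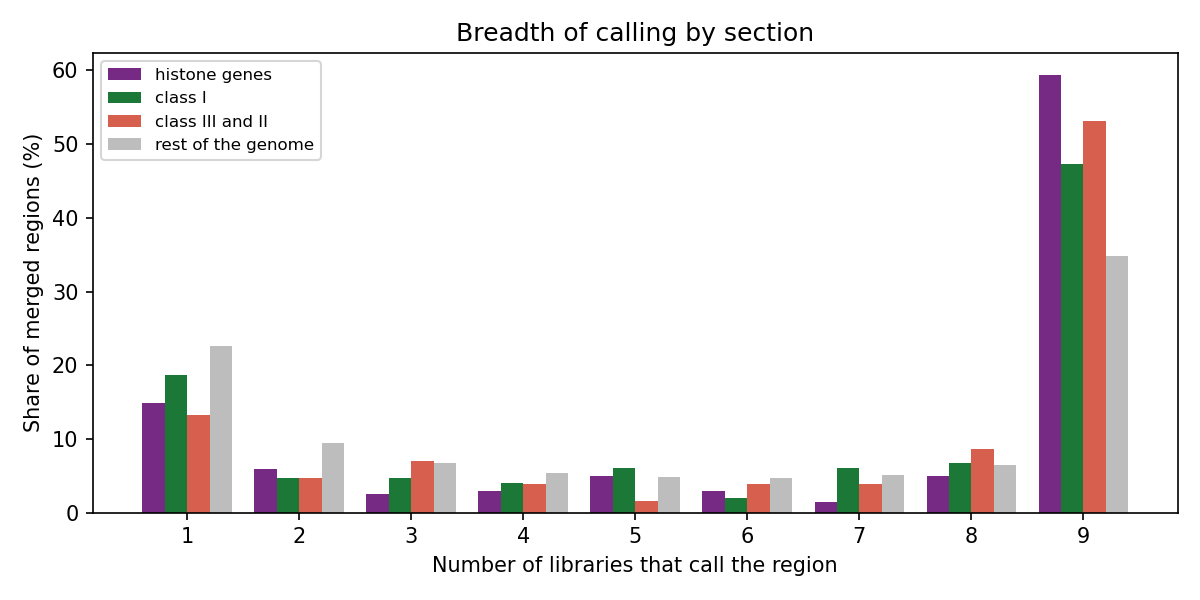
Bars give the share of merged regions (y axis, %) by the number of libraries that call them (x axis), for the 3 sections and the rest of the genome. The histone gene section has 59.4% of its regions at 9 libraries, against 34.8% in the rest of the genome.

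The histone gene section stood out for width. The width of a region in a library is the number of its bases that the peaks of that library cover. Over regions called in a library, the median was 665, 665 and 720 bp in the VCaP16 libraries, 630, 685 and 663 bp in the VCaP_ENZ libraries and 756, 737 and 696 bp in the VCaP_DMSO libraries. In the class I section it was 480, 550 and 554 bp in VCaP16, 469, 580.5 and 472 bp in VCaP_ENZ and 534, 496.5 and 502 bp in VCaP_DMSO. The class III and II section had 514, 546.5 and 524 bp in VCaP16, 507, 544.5 and 495 bp in VCaP_ENZ and 586, 546 and 519 bp in VCaP_DMSO. The rest of the genome lay lower, at 413 to 457 bp. Histone gene regions were thus wider than those of each other section in 9 of 9 libraries, while the class I and the class III and II sections changed places between libraries.

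Merged over the libraries, 35.6% of histone gene regions spanned at least 1000 bp, against 16% in class I, 23.4% in class III and II and 12.3% in the rest of the genome. All 5 regions of the stretch with at least 2000 bp were in the histone gene section. The widest, chr6:26156457-26159364, spanned 2908 bp and was covered over 2627, 2875 and 2808 bp in VCaP16, 2874, 2634 and 2644 bp in VCaP_ENZ and 2813, 2838 and 2548 bp in VCaP_DMSO. It was wide in every library, with no order among the groups. The second, chr6:27099503-27101893 with 2391 bp, was also the best scored of its section. In the class I section the widest were chr6:28948688-28950616 (1929 bp) and chr6:28907899-28909821 (1923 bp), both near its border with the histone gene section. In the class III and II section they were chr6:33216010-33217708 (1699 bp) and chr6:33281438-33283116 (1679 bp).

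Wide peaks tend to have high scores, so width was also read within ranges of the score rank, over the regions called in all 9 libraries. The rank is the place of a peak in its own list by the score of the authors, as a percent from the top, so low values are strong peaks. The score is the authors' own value per peak and was used only to rank and filter. Among regions with a median rank in the best 10%, the 35 histone gene regions had a median width of 1064 bp, against 837 bp in the rest of the genome. At ranks of 10 to 25% the 28 histone gene regions had 1106 bp, against 667 bp. At 25 to 50% they had 670 bp, against 529 bp, and at 50 to 100% 481 bp, against 460 bp. The histone gene regions were wider in all 4 ranges, least so in the lowest. Class I regions had 783, 710, 581.5 and 558 bp over the same 4 ranges, and class III and II regions 829.5, 766.5, 550 and 431 bp. Medians above 1000 bp were found in the histone gene section alone.

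Scores ranked high in the histone gene section. Its median rank was 26.8, 30.3 and 26.9% from the top in VCaP16, 31.2, 27.0 and 30.0% in VCaP_ENZ and 25.6, 32.1 and 29.2% in VCaP_DMSO. The class I median ranged from 34.9 to 43.2% and that of class III and II from 29.97 to 40.0%, against 48.9 to 49.45% in the rest of the genome. The histone gene section held few of the very strongest peaks. None of its peaks was in the best 1% of a list in 8 of 9 libraries, while the class III and II section had 2 to 3.23% of its called regions there. These were mostly the same pair in every list, chr6:33216010-33217708 and chr6:33359000-33359962, with worst ranks of 0.298 and 0.841%. The share thus describes very few regions.

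The best scored regions of the stretch lay near its far end. In the class III and II section, chr6:33216010-33217708 had a median rank of 0.173% from the top and chr6:33359000-33359962 of 0.424%, followed by chr6:33385461-33386490 with 1.42%. The first of these ranked at 0.114, 0.298 and 0.187% in VCaP16, 0.155, 0.0583 and 0.112% in VCaP_ENZ and 0.179, 0.173 and 0.242% in VCaP_DMSO, so it was among the strongest peaks of every list. The class I section was led by chr6:30034256-30035387 (0.839%), chr6:30684882-30685602 (2.61%) and chr6:29944298-29945184 (4.80%). The histone gene section was led by chr6:27099503-27101893 (1.79%), chr6:27218732-27220020 (2.41%) and chr6:28303061-28304494 (2.77%).

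Each section was called more fully than the rest of the genome in 9 of 9 libraries, and the groups overlapped in every section. In the histone gene section the share of regions called was 72.8, 75.7 and 82.7% in VCaP16, 71.8, 77.7 and 71.8% in VCaP_ENZ and 72.3, 73.8 and 74.8% in VCaP_DMSO. The class I section had 66, 67.3 and 75.3% in VCaP16, 65.3, 74.7 and 66% in VCaP_ENZ and 74, 66.7 and 66% in VCaP_DMSO. The class III and II section had 75.8, 75 and 82.8% in VCaP16, 68.0, 78.1 and 72.7% in VCaP_ENZ and 75.8, 68.8 and 68.0% in VCaP_DMSO. The highest share of each section was that of VCaP16 replicate 3, which also had the longest list.

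Depth is unknown, since the lists hold no read counts. The lists held 53646 to 68921 peaks, of which 342 to 395 lay in the 3 sections (0.573 to 0.654% of a list). VCaP16 replicate 3 and VCaP_ENZ replicate 2 had the longest lists, so shares were also computed from lists of equal length. The mean share in the histone gene section was 77.1 ± 5.08% in VCaP16 and 73.6 ± 1.25% in VCaP_DMSO (SD, n = 3 each), a difference of 3.46 percentage points. With lists of equal length it was -0.18, against 3.11 in the class III and II section and -1.74 in class I. In the class III and II section VCaP16 averaged 77.9 ± 4.30% and VCaP_DMSO 70.8 ± 4.30%, a difference of 7.03 points, against 6.25 points over the rest of the genome. In the class I section the averages were 69.6 ± 5.05% and 68.9 ± 4.44%, a difference of 0.667 points. Without VCaP16 replicate 3 the difference was 0.687 points in the histone gene section, 4.67 in class III and II and -2.35 in class I. The rest of the genome was not computed with equal lists or without this replicate. The differences at these settings thus have no background beside them. VCaP_ENZ averaged 73.8 ± 3.43% in the histone gene section, 68.7 ± 5.21% in class I and 72.9 ± 5.08% in class III and II. The ranges of the groups overlapped in all of these comparisons, though the difference in the class III and II section was larger than the SD of either group. With 3 libraries against 3, the smallest two-sided exact p is 0.1, and no p was computed for these shares.

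Much of each share is fixed by regions called everywhere. Among the 221 regions that were not, the class III and II section was called at 52.8 ± 9.18% in VCaP16, 42.2 ± 10.8% in VCaP_ENZ and 37.8 ± 9.18% in VCaP_DMSO. The histone gene section was called at 43.5 ± 12.5% in VCaP16, 35.4 ± 8.45% in VCaP_ENZ and 35.0 ± 3.07% in VCaP_DMSO. The class I section was called at 42.2 ± 9.58% in VCaP16, 40.5 ± 9.89% in VCaP_ENZ and 40.9 ± 8.43% in VCaP_DMSO. The rest of the genome had means of 43.8% in VCaP16, 35.6% in VCaP_ENZ and 34.3% in VCaP_DMSO. The groups overlapped in all 3 sections.

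**Figure D3:**
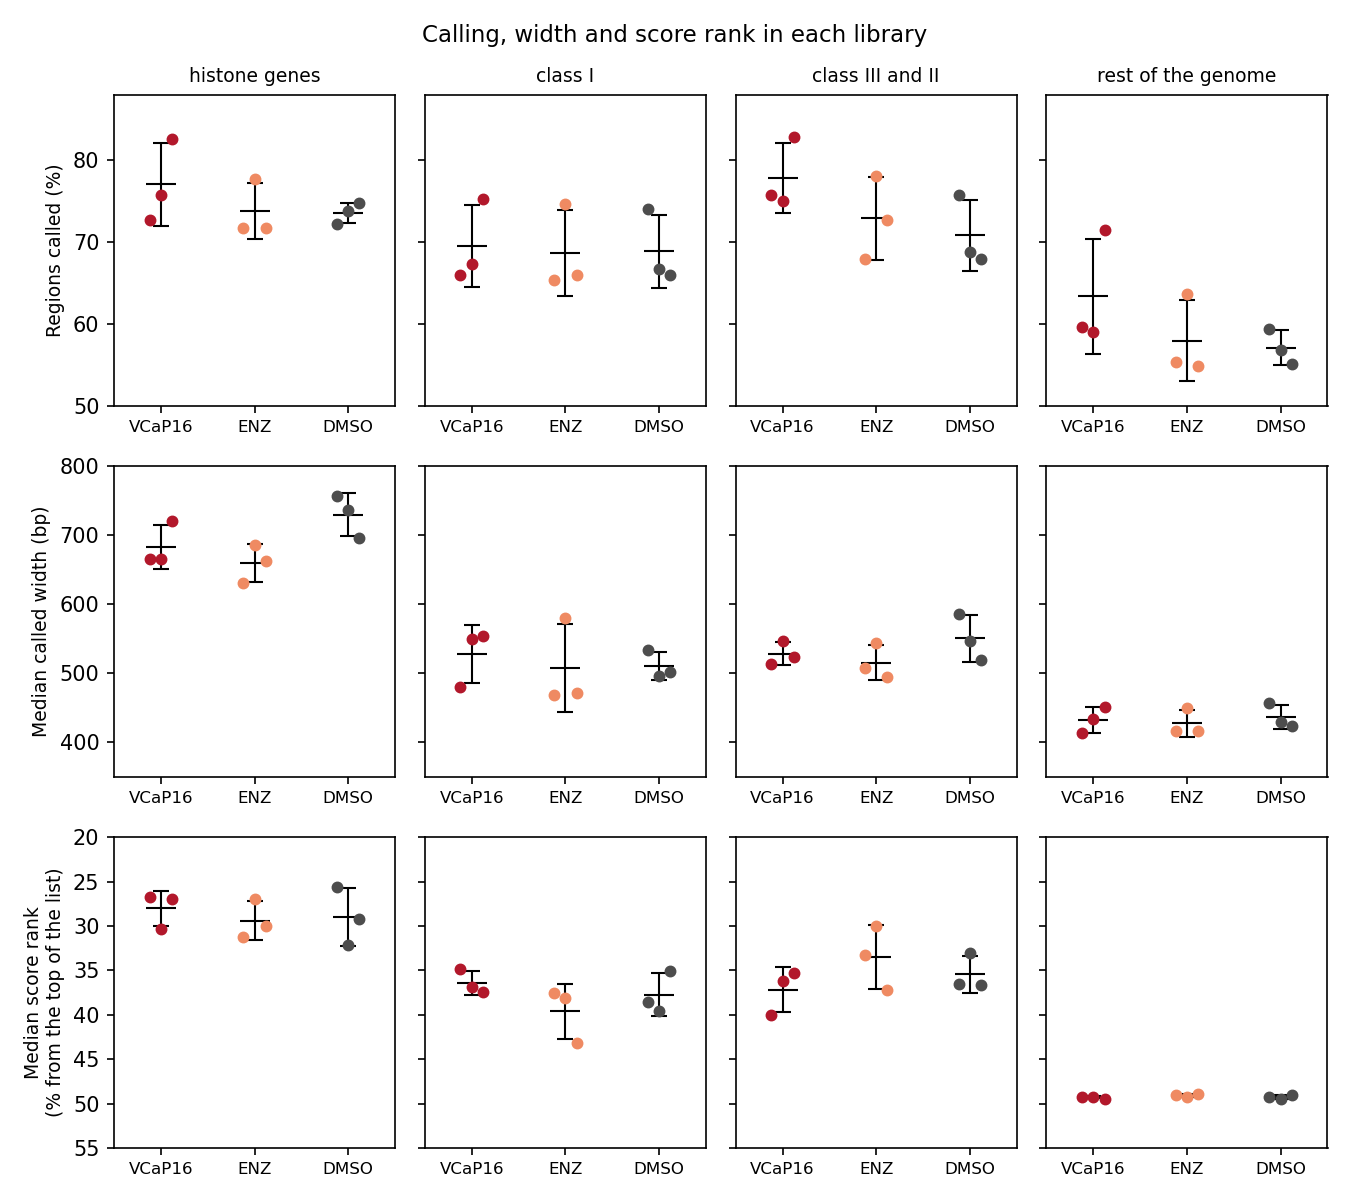
Each point is a library, with VCaP16, VCaP_ENZ (ENZ) and VCaP_DMSO (DMSO) from left to right; black bars are the mean and SD of 3 libraries. Rows give the share of regions called (%), the median called width (bp) and the median score rank (% from the top, with strong peaks up). The y axes do not start at 0. In the histone gene section VCaP_DMSO lies between 696 and 756 bp, above the 630 to 685 bp of VCaP_ENZ, a comparison picked after the values were seen.

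Few regions separated the groups fully. No region of the 480 was called in all VCaP16 and no VCaP_DMSO libraries, a pattern of 1.63% of all merged regions, and of 2.5% of those not called everywhere. In the other direction, 3 regions were called in all VCaP_DMSO and no VCaP16 libraries (0.625%, against 0.532% of all regions). The pattern of all VCaP16 and no VCaP_ENZ libraries was seen in 2 regions (0.417%, against 1.13%), and its reverse in 3 (0.625%, against 0.41%). All VCaP_ENZ and no VCaP_DMSO libraries called 2 regions (0.417%, against 0.653%), and the reverse held for 1 region (0.208%, against 0.557%). For regions not called everywhere, the shares after the first pattern were, in this order, 1.36, 0.905, 1.36, 0.905 and 0.452%. Over all such regions of the genome they were 0.816, 1.73, 0.63, 1 and 0.855%. The counts are small. Leaving out 1 library of either group loosens a pattern, so its count can rise for that reason alone. For all VCaP16 and no VCaP_DMSO libraries, it became 8 regions without VCaP16 replicate 2 (1.7%, against 3.34% of all regions). It was 6 without VCaP16 replicate 1 (1.26%, against 3.39%) and 2 without VCaP16 replicate 3 (0.434%, against 2.3%). The count was 2 without VCaP_DMSO replicate 1 (0.422%, against 2.78%) and 1 without VCaP_DMSO replicate 2 (0.209%, against 2.36%). Without VCaP_DMSO replicate 3 it stayed at 0, against 2.3%. With 1 call allowed in VCaP_DMSO, the count was 3 regions, or 0.625%, against 4.05% of all regions. Each of these shares was below that of all merged regions.

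**Figure D4:**
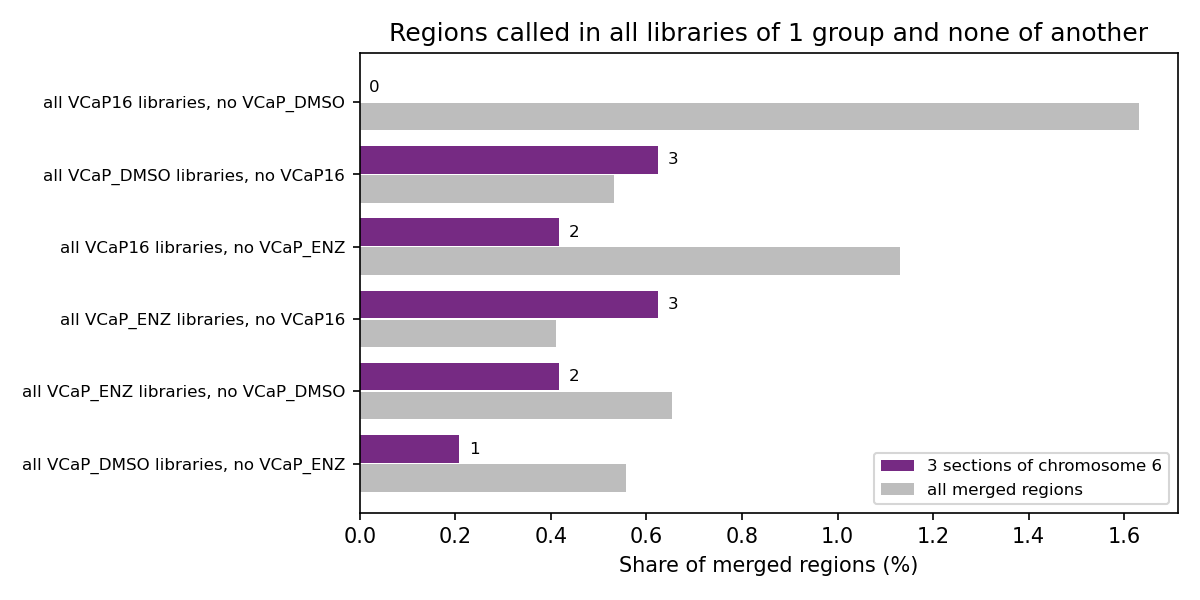
Bars give the share (x axis, %) of the 480 regions and of all merged regions that were called in every library of the first group and none of the second; digits are the numbers of the 480 regions. The longest grey bar, 1.63% for VCaP16 and no VCaP_DMSO libraries, has no region of the stretch beside it.

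Leaving out single libraries loosened the other patterns as well, and the shares over all merged regions moved with the counts. All VCaP_DMSO and no VCaP16 libraries called 5 regions without VCaP_DMSO replicate 2 (1.05%, against 1.09% of all regions) and 6 without VCaP_DMSO replicate 3 (1.27%, against 1.14%). For all VCaP16 and no VCaP_ENZ libraries the count was 4 without VCaP16 replicate 1 (0.84%, against 2.67%) and 6 without VCaP16 replicate 2 (1.28%, against 2.65%). Its reverse was 5 without VCaP16 replicate 1 (1.05%, against 0.678%), 5 without VCaP16 replicate 3 (1.08%, against 1.25%) and 6 without VCaP_ENZ replicate 1 (1.26%, against 1.03%). For all VCaP_ENZ and no VCaP_DMSO libraries it was 6 without VCaP_ENZ replicate 1 (1.26%, against 1.55%), 5 without VCaP_DMSO replicate 1 (1.05%, against 1.42%) and 4 without VCaP_DMSO replicate 2 (0.837%, against 1.14%). The reverse was 3 without VCaP_ENZ replicate 1 (0.629%, against 0.884%), 4 without VCaP_ENZ replicate 2 (0.849%, against 1.45%) and 4 without VCaP_DMSO replicate 3 (0.844%, against 1.27%). It was 2 without VCaP_DMSO replicate 1 (0.422%, against 1.05%) and 2 without VCaP_DMSO replicate 2 (0.418%, against 1.24%).

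With 1 call allowed in the second group, the other patterns were as follows. VCaP_DMSO over VCaP16 had 5 regions (1.04%, against 1.75%). VCaP16 over VCaP_ENZ had 5 regions (1.04%, against 3.45%) and VCaP_ENZ over VCaP16 had 7 (1.46%, against 1.69%). VCaP_ENZ over VCaP_DMSO had 7 regions (1.46%, against 2.29%) and VCaP_DMSO over VCaP_ENZ had 6 (1.25%, against 2.04%). Each share was below that of all merged regions. However, 54% of the 480 regions were called in every library and could show no pattern, against 34.8% in the rest of the genome. This alone lowers the shares of the stretch. Shares over regions not called everywhere were not computed for these looser patterns.

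The regions with a full pattern were 9 in all, with median ranks of 64.2 to 89.5% from the top, in the weaker part of the lists. In the histone gene section, chr6:27600973-27601241 (269 bp) was called in 3 VCaP16 libraries, 0 VCaP_ENZ libraries and 1 VCaP_DMSO library, at a median rank of 64.2% from the top, and chr6:26165593-26166735 in 3 VCaP16, 0 VCaP_ENZ and 2 VCaP_DMSO libraries. On the other side, chr6:27863171-27863438 and chr6:28231168-28232065 were called in 0 VCaP16 libraries and 5 of 6 VCaP libraries, at median ranks of 89.5 and 87.9%, and chr6:28659913-28660508 was called in 1 VCaP16, 3 VCaP_ENZ and 0 VCaP_DMSO libraries. In the class I section, chr6:31096809-31097339 was missed in all VCaP16 libraries and called in 5 of 6 VCaP libraries. The other class I region, chr6:30558931-30559360, was called in 0 VCaP16, 3 VCaP_ENZ and 1 VCaP_DMSO libraries. In the class III and II section, chr6:31887538-31887893 was called in the VCaP_DMSO libraries alone and chr6:33048174-33048682 in the VCaP_ENZ libraries alone, at median ranks of 80.2 and 86.3%. With a minimum score of 5, 5 of the 9 regions kept a pattern, with lists of equal length 6 did, and with a call needing 50% of the region 3 did.

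Fisher's exact test of VCaP16 against the 6 VCaP libraries, two-sided, passed no region after Benjamini-Hochberg adjustment over all 94773 regions. The lowest adjusted p was 1 and the lowest p that the design gives is 0.0119. At that lowest p a region could pass only if a large part of all regions reached it too. The test could thus hardly pass any region, and its outcome says little. Before adjustment, 4 of the 480 regions had the exact p of 0.0476. The region called more often in VCaP16 was chr6:27600973-27601241, 1 of 480 (0.208%, against 1.33% of all regions). Those called less often were chr6:27863171-27863438, chr6:28231168-28232065 and chr6:31096809-31097339, 3 of 480 (0.625%, against 0.296% of all regions).

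Widths of single regions were compared with limma on log2 of the called width, centred on the median of each library. The fit used the 33033 regions of the genome called in all 9 libraries, 259 of them in the 3 sections. No region of the genome passed an adjusted p of 0.05 in VCaP16 against VCaP_DMSO, VCaP16 against VCaP_ENZ or VCaP_ENZ against VCaP_DMSO (0% called in each). In simulated data of 33033 regions with normal noise, 100 regions were given a log2 change of 1 and 100 a change of 2. Of these, 40% and 81% were recovered for VCaP16 against VCaP_DMSO. Recovery depends on the number of changed regions, and the simulation set no lower limit on widths, so these shares are a rough guide. Widths of the stretch taken as a whole were close between groups. The median log2 difference was -0.03 for VCaP16 against VCaP_DMSO, -0.04 for VCaP16 against VCaP_ENZ and 0.009 for VCaP_ENZ against VCaP_DMSO, against -0.02, -0.01 and -0.003 over all 33033 regions. Without centring the first and second medians turned to 0.004 and 0.02. By section and with centring, the class III and II medians were -0.0703 against VCaP_DMSO and -0.104 against VCaP_ENZ. Of its 68 regions, 29.4% and 30.9% were wider in VCaP16, against 46.5% and 47.9% of all 33033 regions. Class I had medians of -0.0702 and -0.0152, and the histone gene section -0.00398 and -0.0306. Regions of a section are not replicates, and no test was run on these medians.

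Before adjustment, VCaP16 against VCaP_DMSO had 8 wider and 8 narrower regions of 259 with p under 0.05 by limma (3.09% each, against 4.37% wider and 3.37% narrower of all regions tested). VCaP16 against VCaP_ENZ had 1 wider (0.386%, against 3.8%) and 4 narrower (1.54%, against 3.11%). VCaP_ENZ against VCaP_DMSO had 5 wider (1.93%, against 3.41%) and 10 narrower (3.86%, against 3.55%). These shares are near or below those of the genome.

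The smallest adjusted p of the stretch for VCaP16 against VCaP_DMSO belonged to chr6:26571849-26573000 in the histone gene section, which shared the smallest for VCaP_ENZ against VCaP_DMSO with another region. It measured 465, 516 and 471 bp in VCaP16, 331, 633 and 360 bp in VCaP_ENZ and 1050, 820 and 797 bp in VCaP_DMSO. The VCaP_DMSO libraries lay above all others. The log2 difference was -0.90 ± 0.20 (SE) for VCaP16 against VCaP_DMSO (limma, adjusted p = 0.32) and -1.04 ± 0.20 for VCaP_ENZ against VCaP_DMSO (limma, adjusted p = 0.335). The region with the same adjusted p, chr6:28129177-28129803 in the histone gene section, measured 384, 318 and 340 bp in VCaP16, 503, 627 and 516 bp in VCaP_ENZ and 375, 341 and 256 bp in VCaP_DMSO. Here the VCaP_ENZ libraries lay above all others, with a log2 difference of 0.80 ± 0.16 (SE) from VCaP_DMSO (limma, adjusted p = 0.335). Both regions were singled out after their values were seen.

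The lower median width of the histone gene section in VCaP_ENZ, 659.3 ± 27.7 bp against 729.7 ± 30.7 bp in VCaP_DMSO (SD, n = 3 each), had no overlap between the groups. Over the rest of the genome VCaP_ENZ averaged 427.7 bp and VCaP_DMSO 436.7 bp, and the groups overlapped. The groups overlapped over the 120 regions called in all 9 libraries, where the medians were 815.5 ± 62.9 bp in VCaP_ENZ and 831 ± 49.2 bp in VCaP_DMSO. This comparison was picked from many after the values were seen and carries no test. The class I median rank also had no overlap between VCaP16 (mean 36.4%) and VCaP_ENZ (39.6%), in lists of unequal length.

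Score ranks were compared in lists cut to the best 53646 peaks, since ranks in lists of unequal length are not comparable. Of the 255 regions of the stretch called in every such list, 10 ranked higher in each VCaP16 library than in each of the 6 VCaP libraries (3.92%, against 3.53% of 31858 regions of the genome). Another 9 ranked lower (3.53%, against 3.85%). Both shares are near those of the genome. By section, the histone gene section had 8 higher and 3 lower of 119, class I had 1 higher and 2 lower of 70, and class III and II had 1 higher and 4 lower of 66.

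In the histone gene section, chr6:28822866-28823467 ranked at 20.5, 26.1 and 24.1% from the top in VCaP16, 33.1, 67.2 and 41.2% in VCaP_ENZ and 53.4, 66.9 and 52.2% in VCaP_DMSO. It was the farthest apart of the regions that ranked higher in VCaP16. The opposite was chr6:28425742-28426817, at 63.8, 70.9 and 65.8% in VCaP16, 46.8, 45.5 and 50.4% in VCaP_ENZ and 18.8, 26.4 and 14% in VCaP_DMSO. There the 3 groups did not overlap, with VCaP_DMSO strongest and VCaP_ENZ between the others. Among strong peaks, chr6:27113636-27115546 ranked at 1.88, 2.31 and 2.7% in VCaP16, 2.98, 3.77 and 6.38% in VCaP_ENZ and 6.14, 9.41 and 6.44% in VCaP_DMSO. These regions were chosen for their pattern after their ranks were seen, and their values are a description.

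In the class III and II section fewer peaks reached the best 10% of the list in VCaP16. In lists of equal length the number of its regions there was 17, 20 and 18 in VCaP16, 23, 23 and 23 in VCaP_ENZ and 22, 23 and 23 in VCaP_DMSO. The VCaP16 libraries lay below all others, and also did so in the full lists, with 18, 20 and 19 in VCaP16, 23, 24 and 23 in VCaP_ENZ and 22, 23 and 24 in VCaP_DMSO. This count was chosen after the data were seen and carries no test. Much of it came from regions near the limit: chr6:31707227-31708206 ranked in the full lists at 12.3, 12.2 and 11.9% in VCaP16, 5.91, 5.31 and 6.98% in VCaP_ENZ and 8.42, 10.8 and 7.28% in VCaP_DMSO, so it fell just outside in VCaP16. The region chr6:31830367-31831057 reached the best 10% in 1 VCaP16 library and in all VCaP_ENZ and VCaP_DMSO libraries. In the same section, chr6:33165226-33165757 ranked at 1.22, 1.08 and 1.16% in VCaP16, 3.79, 3.21 and 1.4% in VCaP_ENZ and 1.57, 2.89 and 2.08% in VCaP_DMSO in lists of equal length, higher in VCaP16. The histone gene section went the other way: in lists of equal length it had 35, 33 and 37 regions in the best 10% in VCaP16, 29, 31 and 29 in VCaP_ENZ and 28, 26 and 29 in VCaP_DMSO. The VCaP16 libraries lay above all others in these lists. In the full lists VCaP16 overlapped VCaP_ENZ, with 37, 33 and 43 in VCaP16, 29, 36 and 29 in VCaP_ENZ and 32, 28 and 29 in VCaP_DMSO. With equal lengths the rest of the genome had 5296 to 5304 regions in the best 10% in every library. That count is nearly fixed by the equal length of the lists, so it is no contrast to the histone gene section. This count too was chosen after the data were seen and carries no test.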

How the data were processed

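The authors deposited 1 ATAC-seq peak list per library, holding a position, a name and a score for each peak; the score never falls below 2 and its unit is not stated. Per the submitters' processing notes, MACS2 2.2.7.1, HOMER 3.12 and BWA 0.7.15-r1140 were used with hg19; their settings, read filtering and Tn5 shifting are not stated. Per the labels' protocols, bulk libraries came from formaldehyde-crosslinked cells; the same text describes a single-cell preparation, and the lists were treated as bulk. Read depth is unknown, and list length limits what can be compared.

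Lists were merged at 1 bp overlap, and a call needed 1 bp. Sections follow the midpoint of a region. Widths were tested with limma 3.58.1 (R 4.3.3) and calls with Fisher's exact test (scipy 1.17.1), both with Benjamini-Hochberg adjustment over the genome; the width test was checked on simulated data. Named regions are, per section, the 3 best by median rank, the 2 widest, all with a full pattern, the longest stretch without a region and the bins with the most and fewest regions; others are marked as chosen afterwards. Alternatives were a score of at least 5, equal lists, 50% overlap, consensus regions (those with calls in 2 or more libraries of a group), no centring, a replicate block and leaving out each library. The members, sections and gene lists were chosen with earlier results of these data known. Sequences and the order of genes are from RefSeq (GRCh38.p14), and none of its coordinates was used to place regions.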

Additional observations from a re-analysis of the deposited data

How the results depend on the processing

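Of 478 values recomputed under other settings, 435 were counted as the same, 41 as moved and 2 as turned round. Why values moved was not tested. Some could change little or not at all, such as medians with the replicate block. The same holds for comparisons of 2 groups with a library of the remaining group left out. The share counted as the same thus overstates how stable the results are. A value counted as the same if it changed by less than the SD between replicates, whatever its sign. Counts of regions were compared by their ratio. The class I difference between VCaP16 and VCaP_DMSO in the share called went from 0.667 to -2.35 points without VCaP16 replicate 3, within that SD. A value counted as turned round only if the main value was larger than that SD. With lists of equal length, the difference between VCaP16 and VCaP_DMSO in the share of histone gene regions called was -0.18 percentage points. With a score of at least 5, the class I median rank averaged 41.5% from the top. Regions in all VCaP16 and no VCaP_DMSO libraries numbered 1 with a score of at least 5 (0.242%, against 1.88% of all regions) and 4 with a 50% overlap (0.833%, against 1.85%), and 0 to 8 when 1 library was left out. Regions in all VCaP_DMSO and no VCaP16 libraries numbered 3 to 6 with 1 library left out. Regions in all VCaP16 and no VCaP_ENZ libraries numbered 5 with a 50% overlap (1.04%, against 1.43%) and 2 to 6 with 1 library left out. The reverse numbered 1 with a score of at least 5 (0.242%, against 0.416%), 1 with equal lists (0.229%, against 0.789%) and 1 with a 50% overlap (0.208%, against 0.388%), and 3 to 6 with 1 left out. Regions in all VCaP_ENZ and no VCaP_DMSO libraries numbered 1 with a score of at least 5 (0.242%, against 0.702%) and 1 with equal lists (0.229%, against 0.641%), and 2 to 6 with 1 left out. The reverse numbered 2 with a score of at least 5 (0.483%, against 0.584%) and 1 to 4 with 1 left out.

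Without centring, the median log2 width difference of the 3 sections was 0.00391 for VCaP16 against VCaP_DMSO and 0.0195 for VCaP16 against VCaP_ENZ. Leaving out 1 library gave -0.0868 to -0.0230 for VCaP16 against VCaP_ENZ. With the replicate block 0 regions passed in each comparison and the medians were -0.0320, -0.0414 and 0.00902. In this balanced design the block cannot change the medians, so their equality with the main fit is no check. Deviations of same-numbered libraries correlated at -0.0306 to 0.0555 (9 pairs). Those of other numbers in other groups correlated at -0.0643 to 0.0622 (18 pairs). These values show no pairing by replicate number but cannot exclude it. No region of the 3 sections passed the width test with any library left out, though 3 of the genome did for VCaP16 against VCaP_ENZ without VCaP_ENZ replicate 2, and 1 without VCaP_ENZ replicate 1. For VCaP_ENZ against VCaP_DMSO, 1 of the genome passed when either of these libraries was left out.

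With 3 libraries per group and unknown read depth, a missing call is not shown to be closed chromatin, and no difference in a single region of the stretch was detected after adjustment.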
